A study of Homo sapiens with 12 samples.

Results

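The AP-1, EGR and KLF immediate early factors are a set of 10 human genes, FOS, FOSL1, FOSL2, JUN, JUNB, JUND, EGR1, KLF4, KLF6 and IER3. They were chosen by name, with earlier results of these data known. Every probe set that the platform annotation gives to one of them was read. The 10 genes, of 19775 on the array, had 27 probe sets of 54675. A gene is given below by its representative, the probe set with the highest mean log2 signal over all 12 arrays, and the other tested probe sets are given where their call differs from it. The study measured total RNA of stable HEK lines, a human embryonic kidney cell line, on Affymetrix arrays with 1 array per sample and 3 arrays in each of 4 groups. The groups were the WT TRPM7 line given tetracycline for 72 hours, the same line untreated, the TRPM7DKD mutant line given tetracycline for 72 hours, and that line untreated. Both lines carry a tetracycline-inducible TRPM7 construct and were kept in 5 ug/mL blasticidin. In the mutant the whole C-terminal kinase domain is deleted, and the series design names that line as the nonfunctional control for the inducer. The tetracycline amount is given as 1 ug with no volume. The labels do not say whether replicates came from separate cultures or whether a line is 1 clone, so the p-values cover only spread among these arrays, which may be technical.

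TRPM7 is an ion channel for divalent cations that carries its own protein kinase domain. Immediate early genes are transcribed within minutes of a growth factor, calcium or stress signal, without new protein synthesis, and their RNA is usually short-lived. FOS and JUN family proteins pair through leucine zippers to form the AP-1 transcription factor, while EGR1, KLF4 and KLF6 bind GC-rich DNA through zinc fingers. IER3 is not a DNA-binding factor; its product is a stress-induced protein that acts on ERK signalling and cell survival.

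Of the 8 HEK markers listed, 7 had a probe set above the filter on low values. Among them were IRS4, with group means of 13.37 to 14.93, and NEFM, with 6.51 to 7.18. LHX1 was not above it. Of the blood and immune markers 1 of 4 was above the filter, HBB at 6.83 to 7.2. Of the fibroblast and endothelial markers 1 of 5 was, PECAM1 at 6.32 to 6.75. The representative of TRPM7 itself averaged 7.62 with tetracycline and 8.47 untreated in the WT line, and 8.19 with tetracycline and 8.39 untreated in the mutant line. The WT change was -0.85 (SE 0.297, adjusted p = 0.0643), so this probe set did not show a rise with the inducer in either line. Where the TRPM7 probes lie on the construct is not known here, so the signal cannot check whether the construct was induced. The WT arrays were more variable than the mutant arrays: the median SD of a tested probe set was 0.326 with tetracycline and 0.299 untreated in the WT line, and 0.19 with tetracycline and 0.174 untreated in the mutant line.

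In the WT line 6 of the 10 factors rose with tetracycline: FOSL2, JUND, EGR1, KLF4, KLF6 and IER3, by 1.46-fold to 2.61-fold. None fell. In RNA of whole cultures, a larger share of expressing cells and more RNA per cell cannot be told apart. FOS, FOSL1, JUN and JUNB also had positive changes, which did not pass the test. The background was 9.41% of all tested gene representatives called higher, against 6 of 10 here. On 9 of the 10 representatives, all but JUN, every tetracycline array lay above every untreated array, against 15.3% of all representatives. The median log2 change was 0.88 over the 10 genes and 0.03 over all tested representatives. Because the factors were chosen with earlier results of these data known, such shares and medians describe the set and are not an independent test. Of the 27 probe sets, 23 passed the filter on low values, 13 were called higher (7.83% of all tested probe sets) and 0 lower (9.11%). The 4 probe sets that did not pass were 2 of FOSL2, 1 of JUND and 1 of KLF6. The test was limma on log2 signal with one model over all 12 arrays, with p-values adjusted by Benjamini-Hochberg over 29553 tested probe sets and a call at an adjusted p under 0.05. That model shares one spread over all groups and called 16.9% of all tested probe sets in either direction. With the WT arrays alone 3 of the 10 factors were called, JUND, KLF4 and KLF6, against 4.14% of all tested probe sets. Without the third array of every group 1 was, EGR1, against 1.83%.

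**Figure D1:**
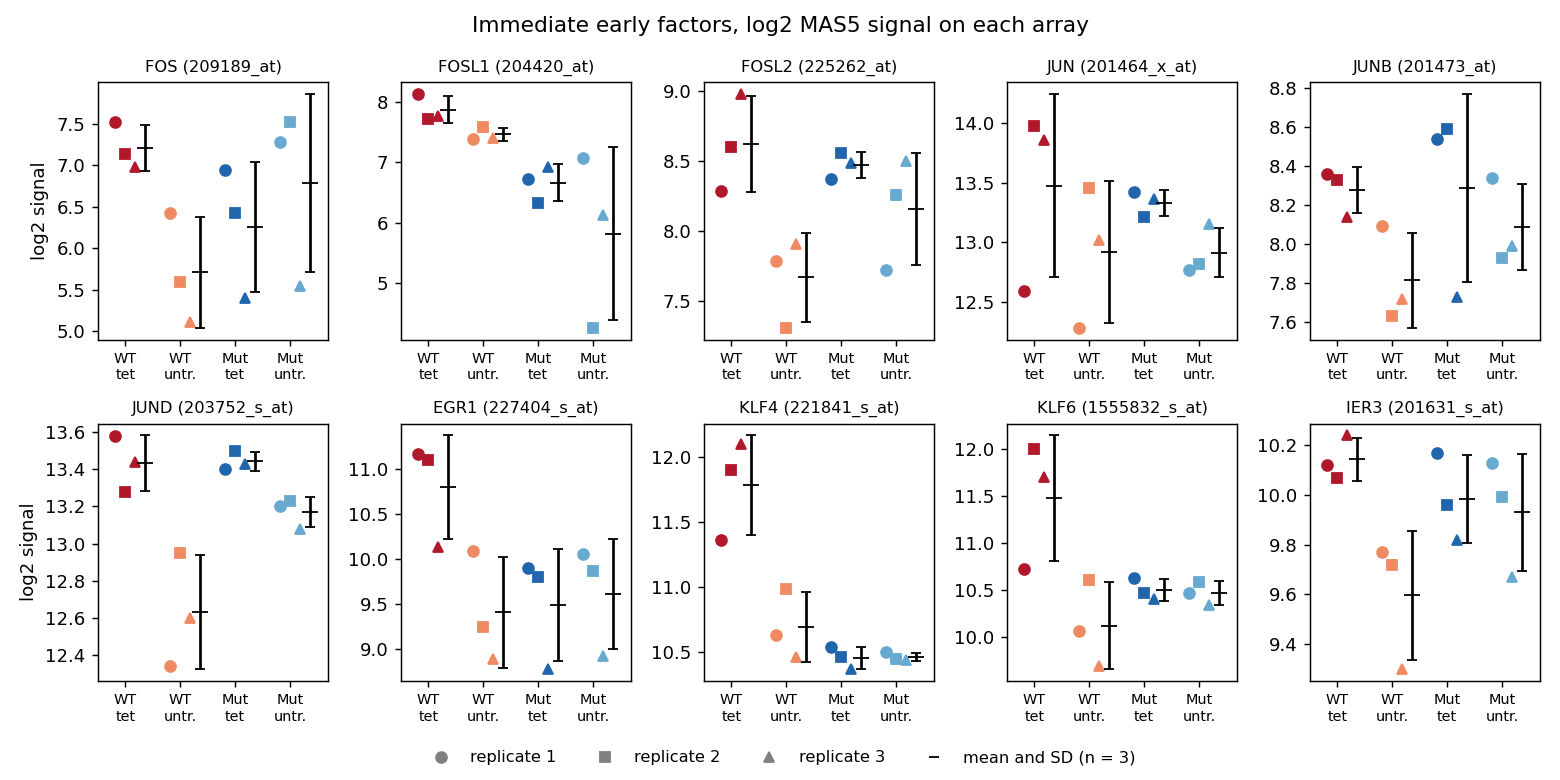
Log2 MAS5 signal of the representative probe set of each factor on each of the 12 arrays, with points for arrays, shapes for replicate numbers and bars for the mean and SD (n = 3). In the 9 panels other than JUN, all WT points with tetracycline lie above all untreated WT points; each panel has its own axis range.

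The 250 bases before the RefSeq start (build GRCh38.p14) are shown for the 5 called factors that the RefSeq promoter table lists, because these genes rose together in the WT line. It lists 8 of the 10 factors, FOSL1 and IER3 not among them. The windows are chr2:28392608-28392857 on the plus strand for FOSL2, chr19:18281623-18281872 on the minus strand for JUND, chr5:138465229-138465478 on the plus strand for EGR1, chr9:107489770-107490019 on the minus strand for KLF4 and chr10:3785210-3785459 on the minus strand for KLF6. Each is written 5′ to 3′ on the strand of its gene. Capitals mark every match, on either strand, to the motifs named after the sequences.
FOSL2: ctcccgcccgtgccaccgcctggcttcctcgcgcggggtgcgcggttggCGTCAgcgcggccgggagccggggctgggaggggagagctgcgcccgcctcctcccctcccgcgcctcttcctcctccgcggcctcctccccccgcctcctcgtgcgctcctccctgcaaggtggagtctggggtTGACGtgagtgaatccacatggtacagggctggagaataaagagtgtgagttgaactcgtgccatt
JUND: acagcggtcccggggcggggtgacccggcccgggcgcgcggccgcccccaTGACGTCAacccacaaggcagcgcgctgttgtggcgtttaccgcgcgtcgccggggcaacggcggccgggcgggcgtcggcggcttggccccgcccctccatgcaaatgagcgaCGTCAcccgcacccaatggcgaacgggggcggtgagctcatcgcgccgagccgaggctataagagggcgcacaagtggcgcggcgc
EGR1: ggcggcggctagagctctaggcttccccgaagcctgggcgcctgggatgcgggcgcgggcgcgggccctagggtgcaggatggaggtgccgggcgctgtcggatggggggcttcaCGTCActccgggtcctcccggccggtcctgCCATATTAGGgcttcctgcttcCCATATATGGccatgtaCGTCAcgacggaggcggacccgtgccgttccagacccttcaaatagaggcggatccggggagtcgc
KLF4: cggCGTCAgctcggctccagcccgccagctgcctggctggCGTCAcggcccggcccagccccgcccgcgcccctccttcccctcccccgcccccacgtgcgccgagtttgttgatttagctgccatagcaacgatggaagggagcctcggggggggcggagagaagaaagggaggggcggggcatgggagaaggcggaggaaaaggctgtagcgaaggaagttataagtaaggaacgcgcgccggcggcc
KLF6: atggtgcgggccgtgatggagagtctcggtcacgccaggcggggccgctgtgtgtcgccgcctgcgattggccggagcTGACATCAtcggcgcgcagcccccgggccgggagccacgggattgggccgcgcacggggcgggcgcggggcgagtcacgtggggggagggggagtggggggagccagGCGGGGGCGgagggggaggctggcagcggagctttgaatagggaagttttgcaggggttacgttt
The motifs searched were the AP-1 site TGACTCA, the cyclic AMP response element TGACGTCA, its variant TGACATCA, the core TGACG, the EGR site GCGGGGGCG and the CArG box, which serum response factor binds. The AP-1 site was in 0 of the 8 listed factor promoters and in 4.2% of 35116 promoters of the same length. The cyclic AMP response element was in JUND, 200 to 193 bases before the start, and in 1.65% of promoters. The variant was in KLF6, 172 to 165 bases before the start, also in JUN, and in 2.37% of promoters. EGR1 had 2 CArG boxes, 105 to 96 and 83 to 74 bases before the start, a motif in 1.16% of promoters. KLF6 had the EGR site 65 to 57 bases before its start, which 4.72% of promoters hold. The core, which lies within the cyclic AMP response element, was in 7 of the 8 listed, all but KLF6, and in 21.2% of promoters. These shares are over all listed promoters, which were not matched to the factors for base composition. A match describes the letters in the window and says nothing of binding.

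Among the FOS family, the classic immediate early gene FOS read 7.52, 7.13 and 6.98 on the WT arrays with tetracycline and 6.43, 5.59 and 5.11 on the untreated WT arrays (log2 signal, replicates 1 to 3). The groups did not overlap, and the change was 1.5 (2.83-fold, SE 0.552), with an adjusted p of 0.0762 that missed the threshold. It passed under 2 of 21 alternatives, one of them the fit without the third untreated mutant array (adjusted p = 0.0438). FOSL1, whose protein lacks the transactivation domain of FOS, read 8.13, 7.71 and 7.77 with tetracycline and 7.39, 7.59 and 7.41 untreated, a change of 0.4 (SE 0.513, adjusted p = 0.63). FOSL2, a second FOS relative without that domain, read 8.29, 8.6 and 8.98 with tetracycline and 7.79, 7.31 and 7.91 untreated. All 3 tetracycline arrays were above the untreated ones, and FOSL2 rose by 0.96 (1.94-fold, SE 0.253, adjusted p = 0.019). The FOSL2 probe set 218880_at rose by 1.84 (3.59-fold, SE 0.436, adjusted p = 0.0108), while 228188_at changed by 0.45 with overlapping groups (adjusted p = 0.392). The call on the FOSL2 representative was lost without WT tetracycline replicate 2 or 3 (adjusted p = 0.0539 and 0.0869) or untreated WT replicate 2 (0.0587), and the call on 218880_at without WT tetracycline replicate 3 (0.0516). The representative also lost its call with the WT arrays alone (0.0912), without the third arrays (0.157) and with the mean of all FOSL2 probe sets (0.0797).

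Of the JUN family, which forms AP-1 with FOS proteins or with itself, JUND rose. JUND, often described as the member present in resting cells, read 13.58, 13.28 and 13.44 with tetracycline and 12.34, 12.95 and 12.6 untreated in the WT line. The groups did not overlap, and the rise was 0.8 (1.74-fold, SE 0.137, adjusted p = 0.00166); the call was lost among the alternatives only without the third arrays of all groups (adjusted p = 0.0747). Of the other JUND probe sets, 214326_x_at rose by 1.13 with overlapping groups (SE 0.372, adjusted p = 0.0497), a call lost without untreated WT replicate 1, where it was 0.57 (adjusted p = 0.159), and in most of the other fits without 1 array. The JUND set 203751_x_at changed by 0.85 with overlapping groups (adjusted p = 0.0954). JUN read 12.59, 13.98 and 13.86 with tetracycline and 12.28, 13.46 and 13.02 untreated, so the first array was the lowest of its group in both. The groups overlapped and the change of 0.56 (1.47-fold, SE 0.313, adjusted p = 0.239, 95% interval -0.11 to 1.23) did not pass. Without the first WT tetracycline array it was 1 (adjusted p = 0.00554), in a fit that called 27.3% of all tested probe sets in either direction. The other JUN probe sets changed by 0.43 to 0.69, and none was called. JUNB, a weaker activator than JUN in many assays, read 8.36, 8.33 and 8.14 with tetracycline and 8.09, 7.63 and 7.72 untreated, with no overlap and a change of 0.47 (SE 0.25, adjusted p = 0.218).

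EGR1, a zinc finger factor induced by serum, read 11.16, 11.09 and 10.13 in the WT line with tetracycline and 10.09, 9.25 and 8.89 untreated. The lowest tetracycline array was just above the highest untreated one, and EGR1 rose by 1.38 (2.61-fold, SE 0.385, adjusted p = 0.0245). A second EGR1 probe set, 201694_s_at, rose by 1.2 with overlapping groups (2.29-fold, adjusted p = 0.0452). The third, 201693_s_at, changed by 0.43 (adjusted p = 0.616). The EGR1 call was lost without WT tetracycline replicate 2 (adjusted p = 0.0946) and without untreated WT replicate 2 or 3 (0.0595 and 0.102). It was also lost with the WT arrays alone (0.0531) and without the variance trend of the model (0.0643). For 201694_s_at the call held in 6 of 21 alternatives, and leaving out WT tetracycline replicate 1 gave 0.73 (adjusted p = 0.12). The mean of all EGR1 probe sets changed by 1 and was not called (adjusted p = 0.105).

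KLF4, known as a factor of cell cycle arrest and of reprogramming to pluripotency, read 11.36, 11.9 and 12.1 with tetracycline and 10.63, 10.99 and 10.46 untreated. The groups did not overlap, and KLF4 rose by 1.09 (2.13-fold, SE 0.183, adjusted p = 0.00151). Its second probe set, 220266_s_at, rose by 1.16 (2.24-fold, SE 0.247, adjusted p = 0.00604), also without overlap. KLF6, a relative with growth-suppressing activity in several tumours, read 10.72, 12 and 11.7 with tetracycline and 10.07, 10.61 and 9.69 untreated. It rose by 1.35 (2.55-fold, SE 0.275, adjusted p = 0.00468), with no overlap, although the first tetracycline array lay only just above the highest untreated one. The other 3 tested KLF6 probe sets rose by 1.22 to 1.37, and in each that first array lay within the untreated range. All 3 calls were lost without WT tetracycline replicate 2 (adjusted p = 0.0679, 0.148 and 0.16) or 3 (0.0653, 0.131 and 0.131), and that of 208961_s_at was then 0.88 and 1.08. Of the alternatives, leaving out the third arrays ended the calls on both representatives (adjusted p = 0.0855 and 0.173) and no other did.

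IER3 read 10.12, 10.07 and 10.24 in the WT line with tetracycline and 9.77, 9.72 and 9.3 untreated. The groups did not overlap, and the rise of 0.54 (1.46-fold, SE 0.175) passed narrowly (adjusted p = 0.0457). The call held in 10 of 22 alternatives. Without any filter on low values the adjusted p was 0.0673, and without the third untreated WT array it was 0.169.

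In the mutant line no factor was called with tetracycline, and neither was any other probe set: 0 of 29553 by limma, 0% of all representatives, with 620 probe sets (2.1%) at an unadjusted p under 0.05 and none of them a factor's. KLF4 read 10.54, 10.46 and 10.37 with tetracycline and 10.5, 10.45 and 10.44 untreated, a change of -0.01 with a 95% interval of -0.4 to 0.38. KLF6 read 10.63, 10.47 and 10.4 with tetracycline and 10.47, 10.59 and 10.34 untreated, a change of 0.03 (interval -0.55 to 0.62). These 2 representatives were nearly level over the 6 mutant arrays. The second KLF4 set, 220266_s_at, changed by 0.33 (interval -0.2 to 0.86), and the other tested KLF6 sets by 0.06 to 0.17. EGR1 read 9.9, 9.8 and 8.78 with tetracycline and 10.05, 9.87 and 8.92 untreated, so the third array was the low one in both groups. FOS read 6.94, 6.42 and 5.4 with tetracycline and 7.28, 7.52 and 5.55 untreated. JUN and JUND were the 2 of 10 factors whose tetracycline arrays all lay above the untreated ones in this line (7.7% of all representatives), with changes of 0.42 and 0.27. The median change was 0.12 over the 10 factors and 0.02 over all representatives. FOSL1 had a change of 0.85 and one low untreated array, at 4.26 against 7.07 and 6.12 on the others.

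**Figure D2:**
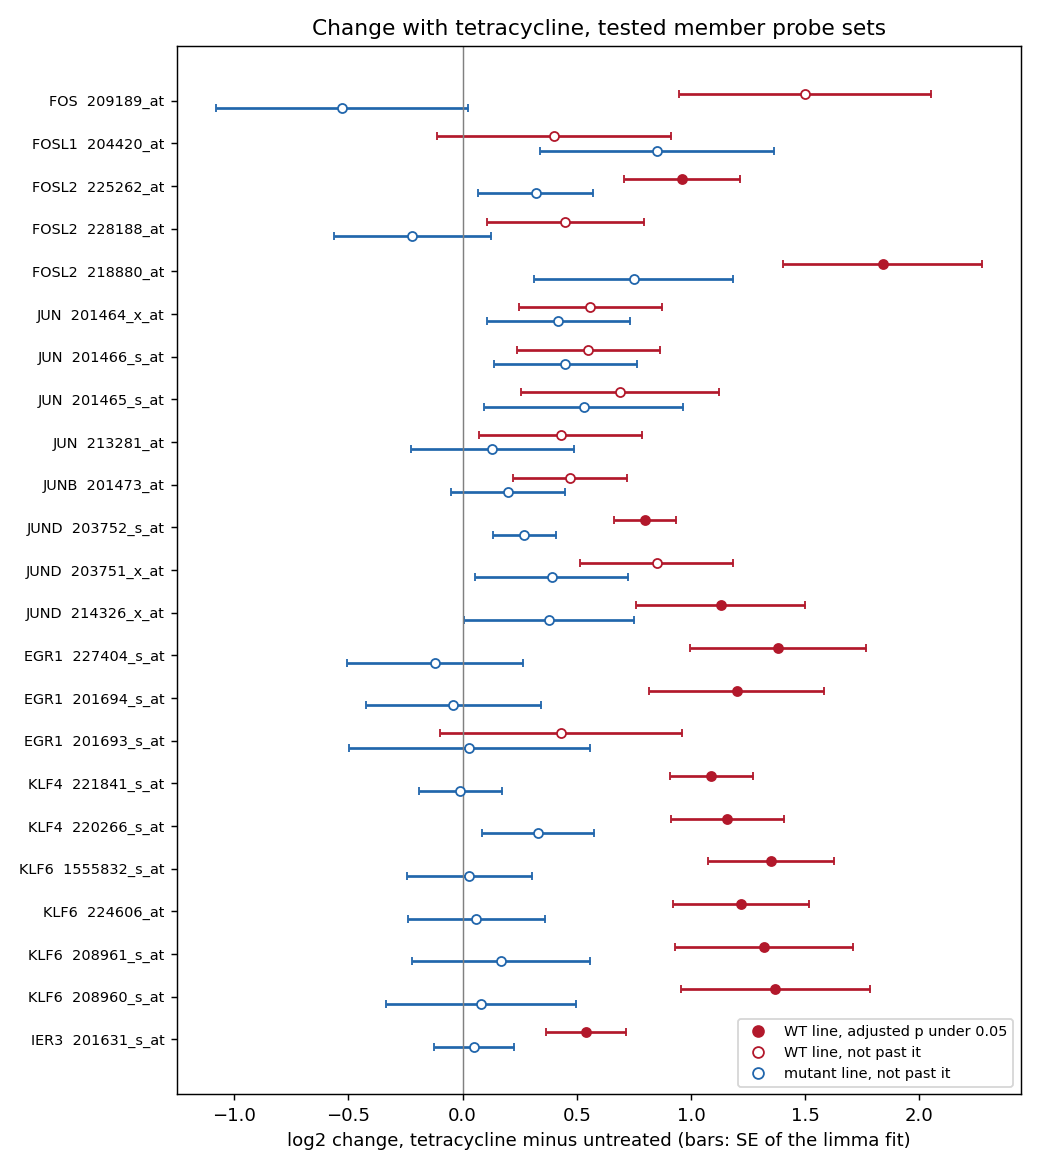
Log2 change with tetracycline of each of the 23 tested probe sets of the factors, for the WT and the mutant lines, with bars for the SE of the limma fit and filled points for an adjusted p under 0.05. All 13 filled points belong to the WT line, and every WT point lies above 0.

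The difference between the 2 inductions, the WT change minus the mutant change, is what the control line was built to give. None of the 10 factors passed that test, against 0.145% of all representatives. An unadjusted p under 0.05 was found for 5 of the 10 representatives. Over probe sets it was found for 9 of the 23 tested sets of the factors, against 14.5% of all tested probe sets. KLF4 came nearest, with 1.1 (SE 0.259, 95% interval 0.54 to 1.65, unadjusted p = 0.000744, adjusted p = 0.0895). FOS had the highest value, 2.03 (SE 0.78, interval 0.37 to 3.7, adjusted p = 0.251). EGR1 had 1.5 (interval 0.34 to 2.66, adjusted p = 0.229), KLF6 1.32 (interval 0.49 to 2.15, adjusted p = 0.151) and JUND 0.53 (adjusted p = 0.23). Among those 5 the interval did not include 0. JUN differed by 0.14 (adjusted p = 0.919), JUNB by 0.27 (0.775) and FOSL1 by -0.44 (0.828). FOSL2 differed by 0.64 (0.437) and IER3 by 0.49 (0.381). For every factor whose rise was called in the WT line, the difference from the mutant line was not called. The median over the 10 factors was 0.58, and over all representatives 0.01. Without the first WT tetracycline array KLF4 and KLF6 passed (adjusted p = 0.00188 and 0.00243), in a fit where 9.14% of all tested probe sets passed this test, against 0.139% with all arrays.

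**Figure D3:**
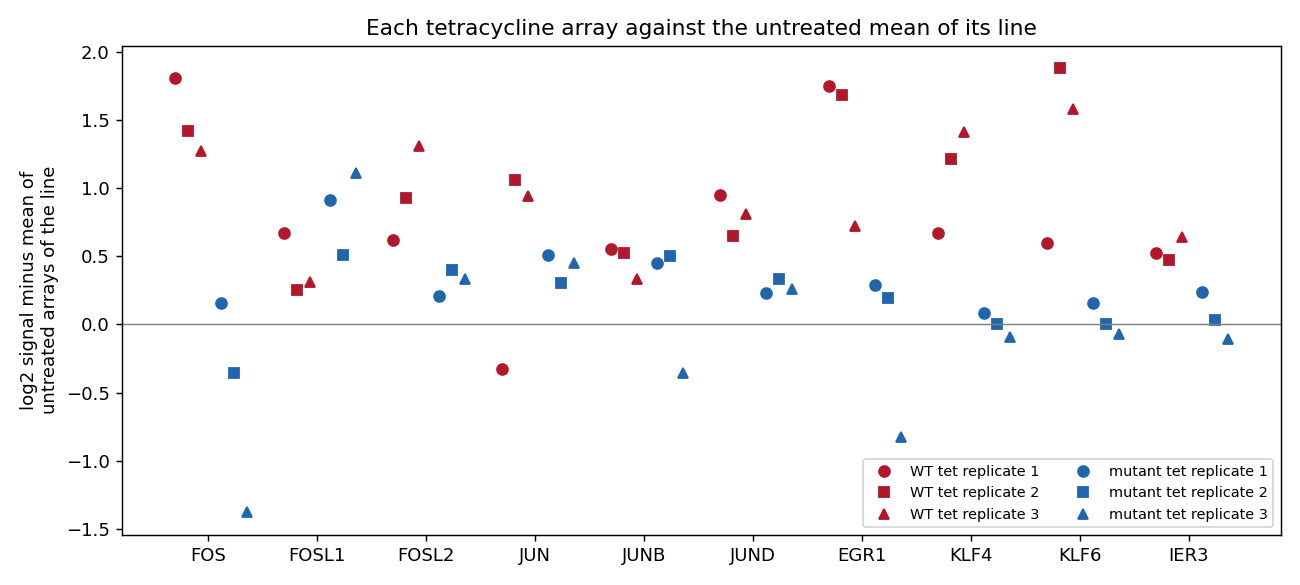
Log2 signal of each tetracycline array minus the mean of the untreated arrays of its line, for the representative of each factor, with shapes for replicates. WT replicate 1 is the lowest of its line for JUN (-0.33), KLF4 (0.67) and KLF6 (0.6), and the highest for FOS (1.81) and EGR1 (1.75).

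The 3 WT tetracycline arrays did not order the factors in one way. Set against the untreated WT mean, replicate 1 was 1.81 higher for FOS and 1.75 higher for EGR1 but 0.6 higher for KLF6 and below that mean for JUN (-0.33). Replicate 2 was 1.42 higher for FOS, 1.68 for EGR1, 1.88 for KLF6 and 1.06 for JUN. JUND and IER3 were even, at 0.65 to 0.95 and 0.47 to 0.64. FOS and EGR1 shared a further feature, in that replicate 3 was the lowest in each of the 4 groups, a pattern found in 3.04% of all representatives. That replicate was also the lowest in 3 groups for the KLF4, KLF6 and IER3 representatives and for the EGR1 set 201693_s_at.

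Over the 4 groups, FOS, EGR1, KLF4, KLF6 and IER3 had their highest mean in the WT line with tetracycline, as did FOSL1, FOSL2 and JUN. JUNB and JUND were highest in the mutant line with tetracycline, where their arrays overlapped those of the WT line with tetracycline. For FOS, FOSL2, JUN, JUNB and IER3 every pair of neighbours in the order overlapped. For FOS, FOSL2, EGR1, KLF6 and IER3 the order ran from the WT line with tetracycline through the mutant groups to the untreated WT line. KLF4 and KLF6 in the WT line with tetracycline were separate from the next group, and their lower groups overlapped. For EGR1 the WT line with tetracycline, at 10.79 ± 0.577, was separate from the untreated mutant line next to it, at 9.61 ± 0.606 (SD, n = 3 each), and the lower groups overlapped. FOSL1 was ordered by line, with 7.87 ± 0.226 and 7.46 ± 0.112 in the WT line and 6.66 ± 0.306 and 5.82 ± 1.43 in the mutant line (tetracycline, then untreated).

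With tetracycline in both lines, KLF4, EGR1 and KLF6 were higher in WT cells than in mutant cells, 3 of 10 factors against 13.3% of all representatives, and none was lower (14.9%). KLF4 was 1.33 higher (2.51-fold, SE 0.183, adjusted p = 0.00028), a call that held in all 22 alternatives. EGR1 was 1.3 higher (2.46-fold, SE 0.385, adjusted p = 0.0223) and KLF6 0.97 higher (1.96-fold, SE 0.275, adjusted p = 0.0174). The EGR1 call was lost without WT tetracycline replicate 1 or 2 or mutant tetracycline replicate 3 (adjusted p = 0.0504, 0.0833 and 0.108), and the KLF6 call without WT tetracycline replicate 2 or 3 (0.0889 and 0.0655) or mutant tetracycline replicate 2 or 3 (0.0549 and 0.0577). Not all other probe sets of these genes passed. The second KLF4 set, 220266_s_at, differed by 0.45 with overlapping groups (adjusted p = 0.188) and was called in 2 of 20 alternatives. The other 3 tested KLF6 sets differed by 0.75 to 0.86, also with overlap (adjusted p = 0.074 to 0.156). For EGR1, 201694_s_at was 1.1 higher (adjusted p = 0.0457), a call lost without WT tetracycline replicate 1, where it was 0.63 (adjusted p = 0.157), and in 6 other fits without 1 array, and 201693_s_at differed by -0.03 (adjusted p = 0.976). FOSL2 split the other way: its representative differed by 0.15 (adjusted p = 0.693), while 228188_at was 1.27 higher with no overlap (2.41-fold, SE 0.343, adjusted p = 0.0139), a call lost without WT tetracycline replicate 3 (adjusted p = 0.0558). FOS, at 0.95 (adjusted p = 0.212), and FOSL1, at 1.21 (adjusted p = 0.0938), were above on every WT array without passing, which made 5 of 10 factors without overlap against 20.6% of all representatives. This comparison shares its WT arrays with the WT induction. Without tetracycline, 2 of 10 factors differed between the lines: FOSL1 was higher in the WT line (5.84% of all representatives) and JUND lower (6.82%). FOSL1 was 1.65 higher (3.13-fold, SE 0.513, adjusted p = 0.0473); without the untreated mutant array at 4.26 it was 0.87 (adjusted p = 0.16), and the call held in 5 of 21 alternatives. JUND differed by -0.54 (0.688-fold, SE 0.137, adjusted p = 0.0195), and the call was lost without the first untreated array of either line (adjusted p = 0.076 and 0.0734) or the second untreated mutant array (0.0802). KLF4, KLF6 and EGR1 were not called between the untreated lines.

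The probe sets of JUN and JUND did not give one answer between the lines. By the array maker's naming, a probe set ending in x_at, as the JUN representative does, may also bind other transcripts. For JUND in untreated cells, 203751_x_at and 214326_x_at were lower in the WT line, by log2 differences of -2 and -2.43 (adjusted p = 0.00226 and 0.00137; 8.7% of all probe sets were called lower), against -0.54 for the representative. With tetracycline the same 2 were again lower, at -1.53 and -1.68 (adjusted p = 0.00439 and 0.00484; 17.3% of all probe sets), while the representative differed by -0.01. For JUN, 201465_s_at differed by -1.01 and 213281_at by 1.02 between the untreated lines (adjusted p = 0.142 and 0.0754). With tetracycline 213281_at was 1.32 higher in the WT line (adjusted p = 0.0145; 10.2% of all probe sets), a call lost without WT tetracycline replicate 2 or 3 (0.0745 and 0.0532) or mutant tetracycline replicate 2 (0.0601), and 201465_s_at differed by -0.85 (adjusted p = 0.159). A sign of RNA quality differed between the lines too. The log2 ratio of 3′ to 5′ actin control signal was 1.05 ± 0.265 for WT cells and 0.259 ± 0.0262 for mutant cells (SD, n = 6 each, two-sided exact permutation p = 0.00216, the smallest these arrays allow). Within the WT line it was 1.11 ± 0.232 with tetracycline and 0.987 ± 0.332 untreated (exact permutation p = 0.6, n = 3 each). The GAPDH ratio was 0.0831 for WT cells and 0.0745 for mutant cells (exact permutation p = 0.779). The part of the actin ratio in the differences between the lines was not tested.

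**Figure D4:**
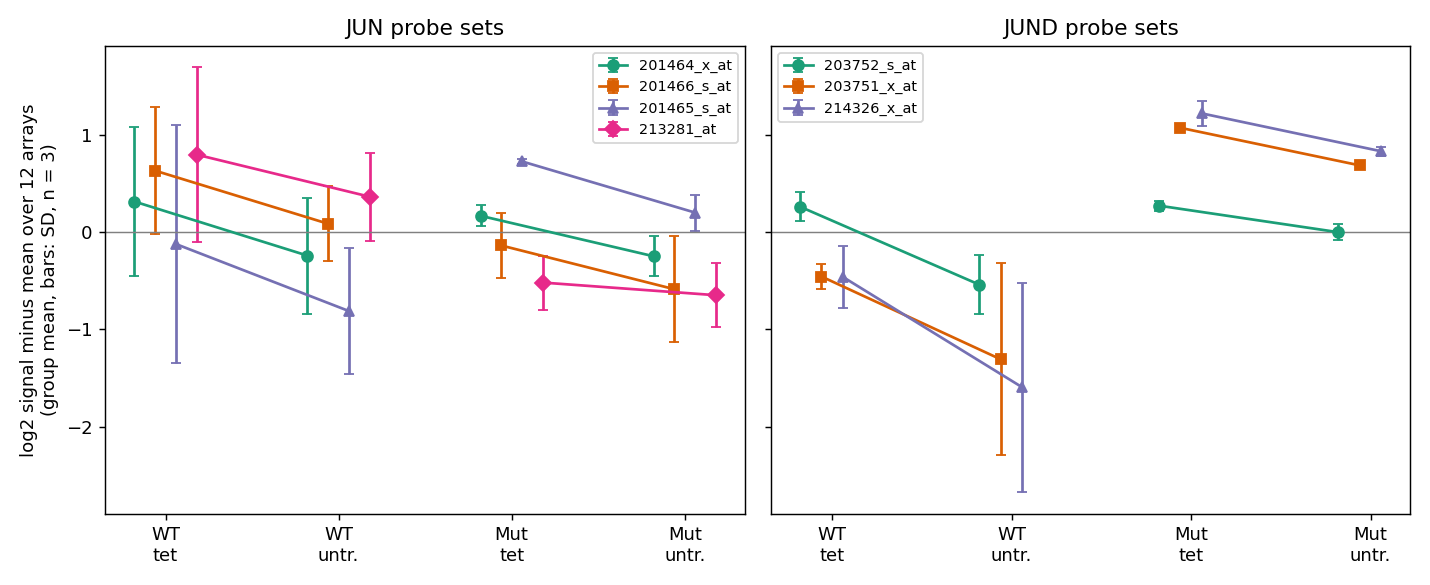
Group means with SD (n = 3) of each tested JUN and JUND probe set, each set minus its own mean over the 12 arrays, with lines joining the tetracycline and untreated groups of one line. Within the WT line all 7 probe sets are higher with tetracycline, while between the lines they lie apart, with 201465_s_at and 213281_at in opposite order.

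The genes around the factors were read from lists of related genes, also chosen with earlier results of these data known. Of the AP-1 and ATF partners 12 of 14 had a probe set and 9 were tested; 3 rose and 1 fell with tetracycline in the WT line, against 9.41% higher and 8.57% lower over all representatives. ATF3, a stress-induced AP-1 partner, rose by 2.03 (SE 0.178, adjusted p = 6.34e-05), the small MAF protein MAFF by 2.39 (SE 0.436, adjusted p = 0.00247) and ATF4, the translation-controlled factor of the integrated stress response, by 0.82 (SE 0.12, adjusted p = 0.000657). BATF3, named after its value was seen, fell by 0.75 (adjusted p = 0.011). The EGR family and its NAB corepressors had 5 tested members, of which 0 rose; WT1, a zinc finger protein of similar DNA preference, fell by 0.58 (adjusted p = 0.0377), a call lost in 10 of the 12 fits that left out 1 array (adjusted p up to 0.131). Their median was 0.05, with 0.41 for the corepressor NAB2 (adjusted p = 0.607). Of the 11 tested other KLF genes none passed, with a median of 0.12; KLF7 had 0.83 (adjusted p = 0.209) and KLF2 0.56 (adjusted p = 0.266).

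Of 24 tested other immediate early genes 8 rose and 1 fell in the WT line, with a median of 0.85. PPP1R15A, a phosphatase subunit of the stress response, rose by 1.79 (SE 0.225, adjusted p = 0.00028) and the matrix protein gene CCN1 by 1.93 (SE 0.266, adjusted p = 0.000456). MYC, a growth factor-induced transcription factor, fell by 1.41 (SE 0.225, adjusted p = 0.00112). Among 23 tested upstream kinases and SRF or TCF factors, which relay the signal to these promoters, 1 rose, the kinase gene MAP2K2 by 0.68 (adjusted p = 0.0282), and the median was 0.11. The MAP2K2 call was lost without WT tetracycline replicate 3 (adjusted p = 0.117) or untreated WT replicate 1 or 2 (0.0529 and 0.0883). Of 12 tested AP-1 target genes 4 rose and 2 fell, with a median of 0.74. TIMP1, a metalloproteinase inhibitor, rose by 1.11 (SE 0.13, adjusted p = 0.000237), the heme-degrading enzyme HMOX1 by 2.15 (SE 0.307, adjusted p = 0.000558) and the growth factor HBEGF by 1.4 (SE 0.218, adjusted p = 0.000954). With the mean of all its probe sets HBEGF changed by 0.36 (adjusted p = 0.545). No gene of these lists was called in the mutant line, where their medians lay between -0.07 and 0.26. The changes there were 0.61 for ATF3, 0.68 for HMOX1, 0.44 for PPP1R15A and -1.54 for EGR4, an EGR1 relative. ATF3 was the list gene of these 6 lists whose inductions differed between the lines, by 1.42 (SE 0.251, adjusted p = 0.0485), and 9 of the 12 fits without 1 array lost that call (adjusted p up to 0.157).

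**Figure D5:**
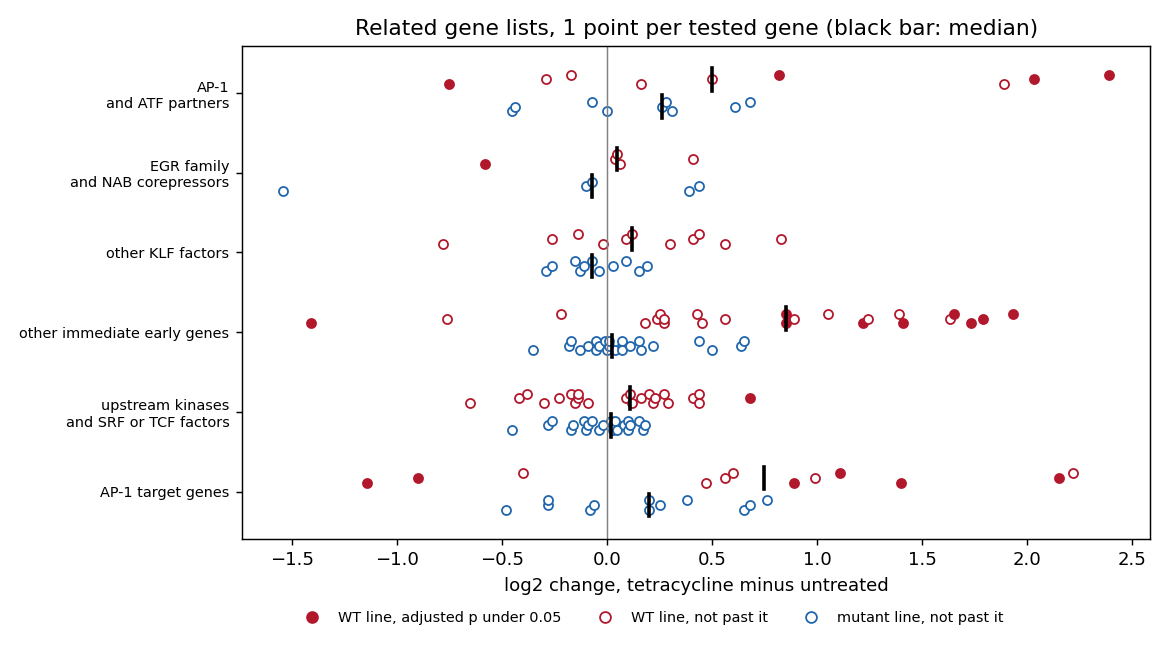
Log2 change with tetracycline of each tested gene of 6 related lists, for the WT and the mutant lines, with filled points for an adjusted p under 0.05 and a black bar at the median. The WT median is highest for the other immediate early genes (0.85) and AP-1 targets (0.74), and the mutant points have no filled symbol.

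The genes most like each called factor over the 12 arrays were found among 13066 other representatives by the root mean square difference of log2 values, each gene centred on its own mean. For JUND they were GSDME (0.121) and PLAC1 (0.146). KLF4 was closest to BBIP1 (0.127) and ARL3 (0.135), and KLF6 to PHF21B (0.159) and GPRC5A (0.194). IER3 was closest to MICA (0.0992) and CACNB1 (0.118), and FOSL2 to LOC105373383 (0.16) and TMED10 (0.175). EGR1 had no gene as close, the nearest being CAPN3 (0.392) and ABCB1 (0.394). The measure is not scaled for the spread of a gene among arrays. The SD within groups was 0.577 to 0.618 for EGR1 and 0.0875 to 0.257 for IER3. No other factor was among these nearest genes.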

How the data were processed

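Total RNA of 12 samples was measured on 12 arrays, 3 in each of 4 groups taken from the labels. The deposited values are linear intensity, the MAS5 signal of each probe set per the submitters' processing notes, with the version not given in the sources used here. The 2% trimmed mean was 500.1 on every array, so the authors had scaled each array to one mean. Signals under 1 (0.337% of values) were set to 1 and log2 was taken. A probe set was tested when its highest group mean exceeded 6.39, the median of all log2 values, which left 29553 of 54675 after removing 62 controls. Gene symbols came from the platform annotation, and 41091 probe sets had 1 symbol, 1801 several and 11721 none. limma 3.58.1 in R 4.3.3 fitted 1 mean per group with a trended variance prior and Benjamini-Hochberg adjustment. The fit was tested on simulated data with the same spread in every group. That test cannot cover the unequal spread of the WT and mutant arrays. Arrays limit precision by their number. Up to 3 genes with the smallest p were named per list and induction, plus those whose inductions differed, and the 2 most alike genes per called factor. The members and lists were chosen with earlier results of these data known. Alternatives changed the filter, offset, normalization, prior, weights, block and arrays; 0 columns were left out.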

Additional observations from a re-analysis of the deposited data

Results flagged for a closer look

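Among the listed genes outside the 10 factors, ATF3 and IRS4 had inductions that differed between the lines by the limma test of the difference itself, which 0.145% of all gene representatives passed. ATF3 averaged 13.09 with tetracycline and 11.06 untreated in the WT line, and 12 with tetracycline and 11.39 untreated in the mutant line, a difference of inductions of 1.42 (SE 0.251, adjusted p = 0.0485). IRS4, an insulin receptor substrate used here as a HEK marker, had a difference of -1.42 (SE 0.236, adjusted p = 0.0405); it fell by 1.56 with tetracycline in the WT line. Both calls were lost in 9 of the 12 fits that left out 1 array, with adjusted p up to 0.157 for ATF3 and 0.155 for IRS4.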

How the results depend on the processing

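The limma fit of the report called 6 of the 10 factors in the WT induction, 0 in the mutant induction, 0 for the difference of inductions, 2 between the untreated lines and 3 between the lines with tetracycline. Of all tested probe sets the same comparisons called, in that order, 16.9%, 0%, 0.139%, 12.9% and 27.6%. Between the untreated lines 1 factor was called with no filter (5.42% of all tested probe sets) and with the stricter filter (20.1%). The count was also 1 with the compared arrays alone (12.8%), with array weights (16.5%) and with the mean of all probe sets (11.8% of genes). It was 0 without the variance trend (10.1%) or without the third arrays (5.81%). In the WT induction 3 were called with the WT arrays alone (4.14% of all tested probe sets) and 1 without the third arrays (1.83%). With array weights 2 differences of inductions were called, KLF4 at 1.25 (adjusted p = 0.00225) and KLF6 at 1.75 (adjusted p = 0.00258), in a fit that called 8.44% of all tested probe sets for that difference, against 0.139% without weights. With the mean of all probe sets 1 of the 10 factors was called between the lines with tetracycline, against 24.3% of all tested genes. Deviations of samples with the same replicate number correlated at 0.03 to 0.25 within the lines; not every pair was over 0.1, and WT tetracycline replicate 3 correlated best with untreated WT replicate 2 (0.11), so the numbers were not taken as pairing the samples. With the replicate block 7 factors were called in the WT induction (19.4% of all tested probe sets), FOS added (adjusted p = 0.0221). That fit also called 1 difference of inductions, EGR1 at 1.5 (adjusted p = 0.0403, 0.257% of all probe sets). Leaving out 1 array at a time gave 3 to 7 calls in the WT induction (9.29% to 27.3% of all tested probe sets). It gave 0 to 2 differences of inductions (0% to 9.14%) and 0 to 2 calls between the untreated lines (5.49% to 18.2%). Between the lines with tetracycline it gave 1 to 4 calls (17.6% to 34.7%), and in the mutant induction 0 (0%). Over all tested probe sets the WT induction had 5005 calls, against 1223 with the WT arrays alone, 541 without the third arrays, 8077 without the first WT tetracycline array and 2744 without the second. No called factor changed sign.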

Other observations

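The untested probe sets of FOSL2, JUND and KLF6 had every group mean below the filter on low values, so no test was made on them.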
